A study of Mus musculus with 16 samples.

Results

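H3K36me3 regions that were called in Sufu;Spop double knockout (DKO) medulloblastomas, at places where none was called in SmoM2-overexpressing medulloblastomas, are described here. They were chosen from the deposited lists by position. A member is a DKO region on chromosomes 1 to 19, at least 1000 bp wide, that shared no base with any SmoM2 H3K36me3 region. The rule found 2150 such DKO-only regions among 31410 DKO regions of that width and those chromosomes, or 6.84% (6.57–7.13%). Of these, 287 lay more than 10 kb from any SmoM2 H3K36me3 region and are called isolated (13.3% of the DKO-only regions and 0.914% of the 31410). The remaining 1863 lay within 10 kb of one and are called near. The 29260 DKO regions of the same width that did share a base with a SmoM2 region are called the other DKO regions. The whole DKO list held 67064 regions and the whole SmoM2 list 89482.

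The series profiled Gli2, H3K27ac and H3K36me3 by chromatin immunoprecipitation and sequencing in mouse medulloblastomas at postnatal day 13, with 16 libraries in 8 groups of 2. DKO tumours lacked Sufu and Spop, and their 4 groups were H3K36me3, H3K27ac, Gli2 and input DNA. SmoM2 tumours overexpressed SmoM2, and their 4 groups were the same. The sources used here do not give the promoter or Cre line behind each genotype, nor whether the 2 libraries of a group came from separate animals. Each genotype and antibody has 1 region list for both libraries. Differences between genotypes thus have no check across replicates, read depth is unknown, and a position outside a list was not called, which is not the same as being free of the mark.

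H3K36me3 is placed by Setd2, a methyltransferase that travels with elongating RNA polymerase, so the mark builds up over the bodies of transcribed genes and thickens away from the promoter. H3K27ac is placed by the acetyltransferases p300 and CBP at active promoters and enhancers. SmoM2 is an activating mutant of Smoothened, the membrane protein that turns on Hedgehog signalling. Sufu holds Gli proteins back in the cytoplasm, and Spop hands some of them, Gli2 included, to a Cul3 ubiquitin ligase for degradation. Gli2 is the main Gli activator of Hedgehog target genes in the granule neuron progenitors from which this kind of tumour can arise. Genes at the positions below are not analysed here, because no annotation of build mm9, the build of the lists, was used. Intervals in parentheses are 95% intervals, Wilson for shares and Newcombe for differences. They cover counting error only, and neighbouring regions are not independent, so the intervals are too narrow where regions cluster.

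DKO-only regions were narrow and weakly enriched beside the other DKO regions. Their median width was 1288 bp (quartiles 1119 and 1603 bp), against 2812.5 bp (1646 and 5707 bp) in the other DKO regions. The authors' fold enrichment over background had a median of 2.96 in DKO-only regions, with a range of 2.40 to 4.35, against 3.46 in the other DKO regions. The authors' −log10 q, which is higher for a more certain region, had a median of 1.81 in DKO-only regions, with a range of 1.13 to 4.53, against 2.79 in the other DKO regions. The medians of isolated and near regions lay close together, with widths of 1286 and 1288 bp, folds of 2.96 and 2.96 and −log10 q of 1.80 and 1.81. Width and strength come from the list that chose these regions, so they are a description and were not tested.

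The share of regions called only in DKO tumours dropped steeply with width. It was 23.1% among the 4257 narrowest DKO regions of at least 1000 bp, 15.4% among the next 3135 regions up to 1500 bp, 10.2% of 4615 regions up to 2000 bp and 3.24% of 5496 regions up to 3000 bp. Between 3000 and 6000 bp, 36 of 7030 regions were DKO-only (0.512%), and among the 6877 regions of 6000 bp or more there was none. A wider region has more bases that can meet a SmoM2 region, so the rule itself favours narrow members. The drop with width is thus a description and was not tested. The share dropped with −log10 q in the same way, from 38.3% of 931 regions below 1.5 to 0.790% of 7464 regions between 3 and 4 and 4 of 5021 regions at 4 or more. In bases, DKO-only regions made up 3.11 of 147 Mb (2.12%).

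The width minimum cut through the thick of the distribution. Another 17759 DKO regions under 1000 bp also shared no base with a SmoM2 region, 530 of them short of the minimum by at most 100 bp, against 464 members less than 100 bp above it. Regions just inside and just outside the minimum looked alike. On chromosome 10, a member of exactly 1000 bp (41439011–41440010) had a fold enrichment of 3.08 and a −log10 q of 2.07, and on chromosome 1 a region of 999 bp (179007875–179008873), which was left out, had 3.09 and 2.00. At the other boundary, near regions reached gaps of 9921, 9912 and 9799 bp to the nearest SmoM2 region, and isolated ones began at 10090, 10123 and 10124 bp.

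**Figure D1:**
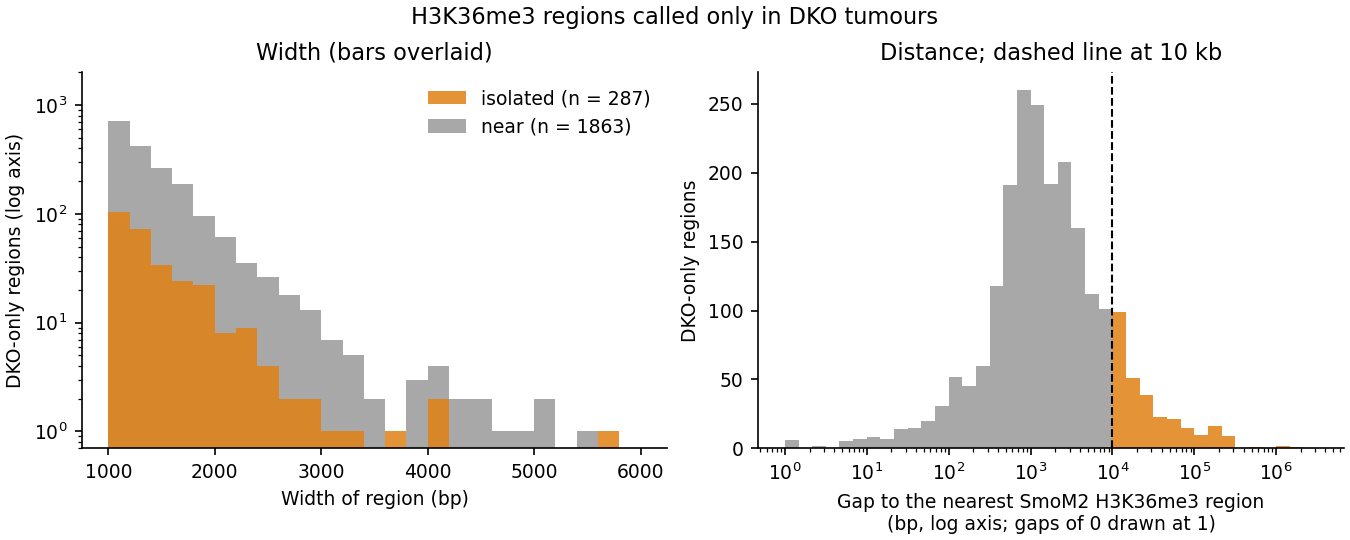
Left, number of DKO-only regions (log axis) by width in bp, isolated in orange and near in grey, with the bars overlaid; right, number by gap to the nearest SmoM2 H3K36me3 region in bp (log axis), with a dashed line at 10 kb. Widths crowd at the 1000 bp minimum (median 1288 bp), and the gaps of the 1863 near regions centre on 1147 bp.

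The mirrored rule found fewer regions. SmoM2 regions of at least 1000 bp that shared no base with a DKO region numbered 620 of 31513 (1.97%, 1.82–2.13%), 66 of them isolated. The ratio of DKO-only to SmoM2-only numbers was 3.47 and varied with the minimums, being 1.82 with a width of at least 500 bp, 9.30 with at least 2000 bp and 2.12 with a −log10 q of at least 2. It was 4.35 for isolated regions, and the ratio of all regions of that width was 0.997. The lists also differed in breadth. Regions of at least 1000 bp covered 147 Mb in DKO tumours and 114 Mb in SmoM2 tumours. The part of depth in the ratio was not tested. SmoM2-only regions were narrow too, with a median width of 1190 bp and a median fold enrichment in their own list of 3.21.

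Most DKO-only regions lay within 10 kb of H3K36me3 called in SmoM2 tumours. The SmoM2 H3K36me3 list itself defines the near class, so the values that follow are a description and were not tested. Near regions were a median of 1147 bp from the closest SmoM2 region (quartiles 551 and 2661 bp), and 842 of 1863 (45.2%, 42.9–47.5%) were within 1000 bp. SmoM2 regions flanked 1170 of the 1863 within 10 kb on both sides (62.8%, 60.6–65.0%) and 693 on 1 side. Between 2 and 10 kb from the centres of near regions, DKO regions covered 29.4% of bases and SmoM2 regions 19.4%. Between 40 and 50 kb the values were 19.5% in DKO and 14.9% in SmoM2 tumours.

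Fewer bases were called around isolated regions than around near ones, in the same lists that chose them, so the values that follow are a description. Their median gap to a SmoM2 region was 20.2 kb (quartiles 13.1 and 47.8 kb). The gap exceeded 50 kb at 70 of the 287 and 100 kb at 39. Between 2 and 10 kb from their centres, DKO regions covered 6.59% of bases and SmoM2 regions none, which the rule fixes. Between 40 and 50 kb, coverage was 10.99% in DKO and 7.48% in SmoM2 tumours, below the coverage around near regions in each genotype.

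Isolated regions were nevertheless mostly not alone in the DKO list. Another DKO H3K36me3 region of any width was within 10 kb of 193 of the 287 isolated regions (67.2%, 61.6–72.4%), against 1812 of 1863 near regions (97.3%) and 28369 of 29260 other DKO regions (97.0%). The nearest DKO region was a median of 3.62 kb from an isolated region, 1.13 kb from a near region and 839 bp from one of the other DKO regions.

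**Figure D2:**
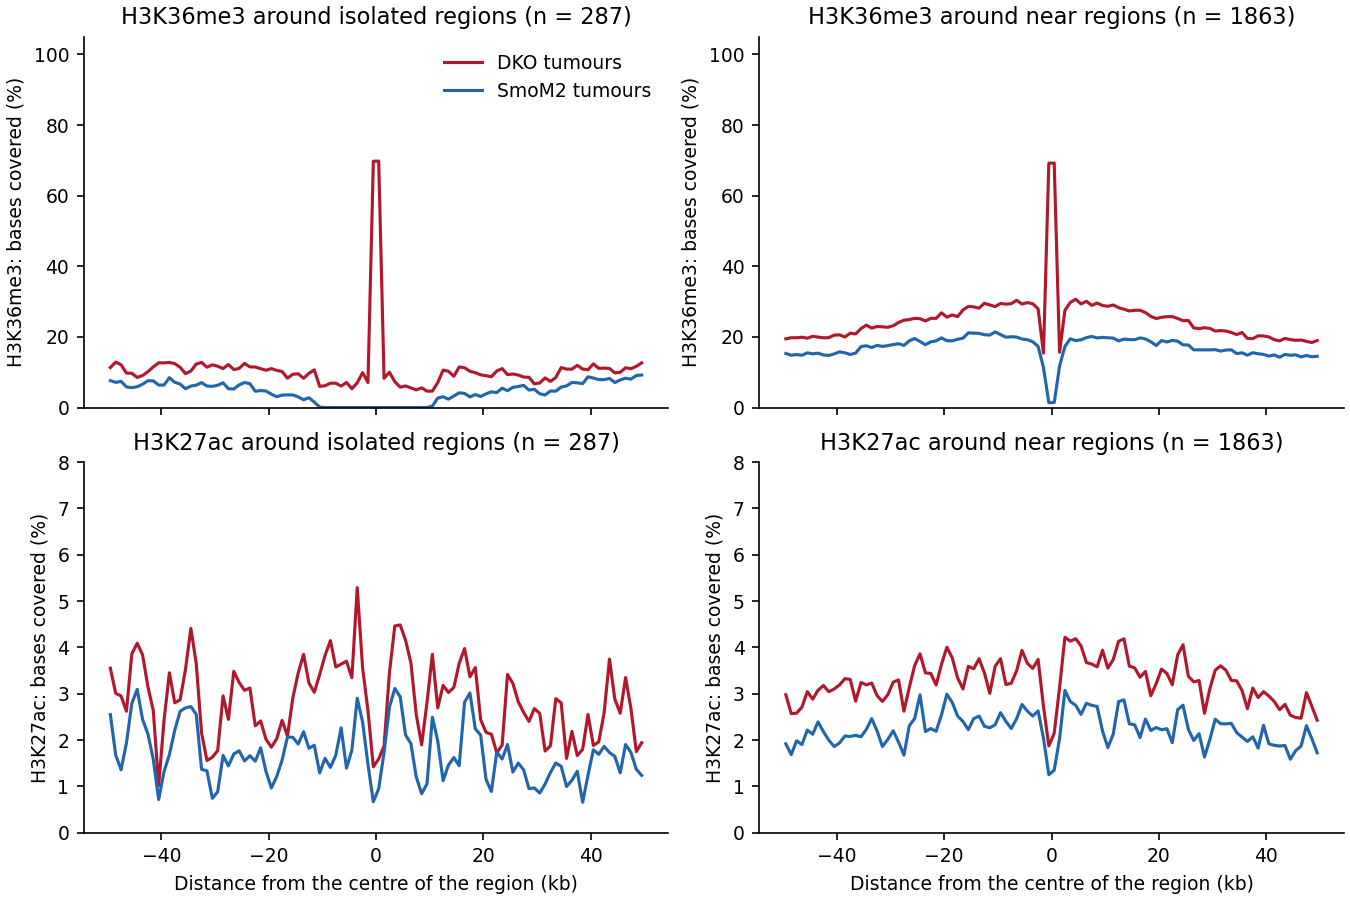
Percentage of bases covered by called H3K36me3 (top) and H3K27ac (bottom) regions in bins of 1 kb, against the distance in kb from the centres of 287 isolated (left) and 1863 near (right) DKO-only regions, DKO tumours in red and SmoM2 tumours in blue. Near regions rise out of coverage present in both genotypes (29.4% in DKO and 19.4% in SmoM2 tumours at 2 to 10 kb), isolated ones out of lower coverage (6.59% in DKO tumours).

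Some DKO-only regions came in runs. Joined where they lay at most 10 kb apart, the 2150 regions formed 1918 stretches, of which 1738 held a single region, 148 held 2 and 32 held 3 or more. Stretches of 2 or more held 412 of the 2150 regions (19.2%). Isolated regions alone, joined at most 50 kb apart, formed 233 stretches, of which 201 held 1 region and 11 held 3 or more.

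The stretch with the most DKO-only bases was on chromosome 17 at 68192581–68233785. Its 8 DKO-only regions, 3 of them isolated, added up to 16.5 kb of the 41.2 kb, with folds of 2.66 to 3.65. DKO H3K36me3 regions covered 21.4 kb of the stretch in all, and SmoM2 regions 0.112 kb. No H3K27ac region of either genotype lay within 50 kb, the nearest being 119 kb away in both. The nearest DKO Gli2 peak was 280.035 kb away. The stretch therefore carried the gene-body mark without any called acetylation or Gli2 peak close by.

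A stretch on chromosome 9 at 57848635–57876596 looked different. Its 4 DKO-only regions added up to 14.7 of 28.0 kb and included the widest of all, at 57870887–57876596, with 5710 bp, a fold enrichment of 3.99 and a −log10 q of 3.89. Inside the stretch, DKO H3K36me3 regions covered 17.3 kb and SmoM2 regions 0.132 kb, while H3K27ac regions covered 11.2 kb in DKO tumours and 3.39 kb in SmoM2 tumours. A Gli2 peak lay 6.69 kb from the stretch in DKO tumours and another 6.70 kb from it in SmoM2 tumours. This was the one of the 10 largest stretches with a Gli2 peak of both genotypes within 50 kb. Acetylation and Gli2 were thus called in both genotypes here, and H3K36me3 regions of at least 1000 bp in DKO tumours alone.

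Of the other 8 of the 10 largest stretches, 2 contained H3K27ac called in DKO tumours and none contained H3K27ac called in SmoM2 tumours. On chromosome 11 at 116457944–116468623, 3 regions of up to 4091 bp added up to 9.11 kb with 1.40 kb of DKO H3K27ac inside, the nearest SmoM2 H3K27ac region being 3.28 kb away. On chromosome 2 at 93513325–93520152, 2 regions added up to 6.00 kb. A DKO Gli2 peak lay 0.966 kb from that stretch and the nearest SmoM2 Gli2 peak 641 kb from it. DKO H3K27ac covered 0.279 kb of it, and the nearest SmoM2 H3K27ac region was 0.565 kb away. SmoM2 Gli2 peaks were sparse everywhere, so a distant one does not mark out a place. Of all DKO regions of at least 1000 bp, 0.337% had a SmoM2 Gli2 peak within 10 kb, against 2.34% with a DKO one. On chromosome 10 at 91571032–91598585, 7 regions added up to 11.8 kb, with H3K27ac 1.60 kb away in DKO and 26.3 kb away in SmoM2 tumours. On chromosome 1 at 71677579–71688733, 4 regions added up to 6.57 kb, and the nearest H3K27ac region was 11.6 kb away in DKO and 528 kb away in SmoM2 tumours.

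The run with the most isolated regions was on chromosome 8 at 48927523–48968920. It held 6 isolated regions with folds of 2.79 to 3.92, together 9.03 kb. SmoM2 tumours had no H3K36me3 region within 129.7 kb of it. The nearest H3K27ac region was 11.05 kb away in DKO tumours, a region of 0.197 kb and the one such region within 50 kb, and 127 kb away in SmoM2 tumours. A run of 5 on chromosome 5 at 105234068–105275148 stood farther from anything called in SmoM2 tumours, with the nearest H3K36me3 region 221 kb away. H3K27ac was not called within 50 kb of it in either genotype, and the nearest region lay 233 kb away in both. Its first region, at 105234068–105235170, had the highest −log10 q of all isolated regions, 4.01, with a fold enrichment of 3.77.

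**Figure D3:**
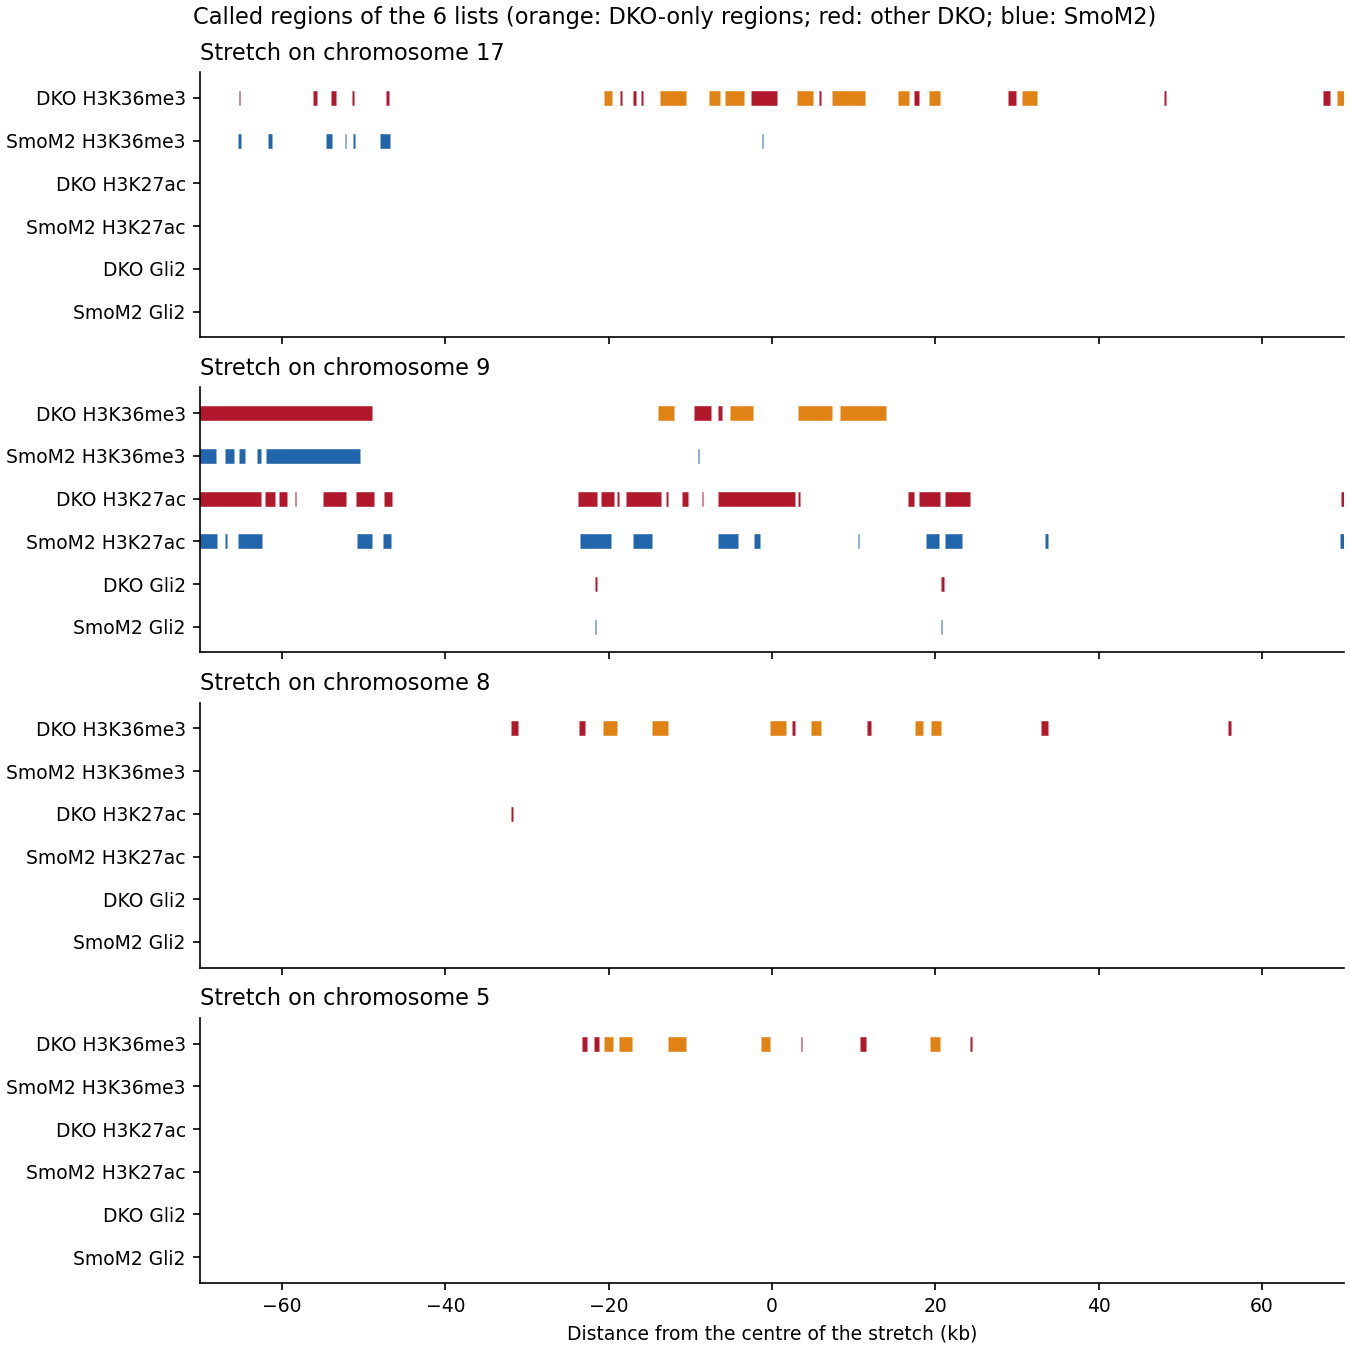
Called regions of the 6 lists (rows) against the distance in kb from the centre of 4 stretches, with DKO-only regions in orange, other DKO regions in red and SmoM2 regions in blue. The stretches on chromosomes 17 (8 DKO-only regions), 8 (6) and 5 (5) have H3K36me3 with little or no H3K27ac, while that on chromosome 9 (4) has H3K27ac and Gli2 in both genotypes.

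Other runs of at least 4 isolated regions were on chromosomes 15, 17, 19 and 10. That on chromosome 15 at 92576741–92589819 held 5 regions in 13.1 kb, and these regions made up all 7.67 kb of DKO H3K36me3 inside it. That on chromosome 19 at 41687972–41723526 held 4 regions and 8.33 kb of DKO H3K36me3, and was the one run of the 6 with a Gli2 peak inside. The peak, at 41692684–41692814 in DKO tumours, had a fold enrichment of 7.39 and ranked 1051st of 1426 by −log10 q. It overlapped no H3K27ac region of either genotype. In SmoM2 tumours, no Gli2 peak was called within 50 kb of that run or of any other of the 6.

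Among single regions, the 3 highest −log10 q belonged to near ones. On chromosome 13, a near region (89854355–89855493) had a fold enrichment of 4.35 and a −log10 q of 4.53, with a SmoM2 region 2.22 kb away and H3K27ac 23.6 kb away in DKO and 23.7 kb away in SmoM2 tumours. One on chromosome 6 at 146494645–146496120 had 4.13 and 4.40, with H3K27ac 44.0 kb away in DKO and 86.4 kb away in SmoM2 tumours. One on chromosome 17 at 84861994–84863908 had 4.09 and 4.28, with H3K27ac 1.43 kb away in DKO and 1.38 kb away in SmoM2 tumours. The near region next in −log10 q, on chromosome 1 (135091410–135092844) with 3.96, overlapped DKO H3K27ac, and the nearest in SmoM2 tumours was 5.76 kb away. The strongest members thus ranged from acetylated positions to positions far from any acetylation.

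The isolated regions farthest from any SmoM2 region had lower −log10 q than these. The farthest, on chromosome 7 at 77501974–77503019, lay 1612 kb from one and had a fold enrichment of 2.97 and a −log10 q of 1.77. It overlapped H3K27ac in SmoM2 tumours and was 0.204 kb from H3K27ac in DKO tumours. The next 2, on chromosome 10 at 129707147–129708203 and chromosome 9 at 38534663–38536282, were 1311 and 1072 kb from a SmoM2 region, with −log10 q of 1.75 and 1.56. The 5th, on chromosome 6 at 64680083–64681388, was 313 kb from the nearest SmoM2 region and overlapped H3K27ac in both genotypes.

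H3K27ac was measured in other libraries than those the rule used. DKO-only regions overlapped it less often than the other DKO regions did. Of all DKO regions of that width, 6.84% overlapped DKO H3K27ac and 4.49% SmoM2 H3K27ac. DKO H3K27ac overlapped 101 of 2150 DKO-only regions (4.70%, 3.88–5.68%), against 2048 of 29260 other DKO regions (6.999%, 6.71–7.30%), a difference of -2.30 points (-3.17 to -1.28). SmoM2 H3K27ac overlapped 61 DKO-only regions (2.84%, 2.22–3.63%), against 1349 other DKO regions (4.61%, 4.38–4.86%), a difference of -1.77 points (-2.44 to -0.949). Among isolated regions, 8 overlapped DKO H3K27ac and 6 overlapped SmoM2 H3K27ac, 3 of them both.

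Width moved with these shares. When only regions of at least 1000 bp and under 2000 bp were compared, a choice made after seeing the data, both differences turned sign and their intervals included 0. DKO H3K27ac then overlapped 4.39% of 1936 DKO-only and 3.88% of 10071 other DKO regions, a difference of 0.508 points (-0.408 to 1.58). SmoM2 H3K27ac overlapped 2.74% of the DKO-only and 2.45% of the other DKO regions, a difference of 0.285 points (-0.430 to 1.16). Among regions under 2000 bp wide, a lower share of overlap was thus not detectable. Widths were not matched inside this band. The DKO-only share still fell there with width, from 23.1% of the 4257 narrowest regions to 10.2% of the 4615 widest. The DKO-only regions compared were thus still the narrower ones, and overlap at equal widths was not tested.

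Within 10 kb, isolated regions had H3K27ac of either genotype less often than the other DKO regions, and SmoM2 H3K27ac less often than near regions. Of all DKO regions of at least 1000 bp, 44.7% had a DKO H3K27ac region within 10 kb and 36.5% a SmoM2 one. DKO H3K27ac lay within 10 kb of 102 of 287 isolated regions (35.5%, 30.2–41.2%), 718 near regions (38.5%, 36.4–40.8%) and 13229 other DKO regions (45.2%, 44.6–45.8%). SmoM2 H3K27ac lay within 10 kb of 64 isolated regions (22.3%, 17.9–27.5%), 569 near regions (30.5%, 28.5–32.7%) and 10828 other DKO regions (37.0%, 36.5–37.6%). The difference of isolated minus other regions was -9.67 points (-15.02 to -3.95) for the DKO mark and -14.7 points (-19.2 to -9.51) for the SmoM2 mark. Isolated minus near gave -3.00 points (-8.76 to 3.10) for the DKO mark, an interval that includes 0, and -8.24 points (-13.2 to -2.69) for the SmoM2 mark.

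Among regions under 2000 bp wide, the difference in the DKO mark shrank until its interval included 0, while that in the SmoM2 mark was smaller and still excluded 0. DKO H3K27ac was within 10 kb of 34.8% of 256 isolated and 36.4% of the other DKO regions, a difference of -1.62 points (-7.27 to 4.48). SmoM2 H3K27ac was within 10 kb of 22.3% of the isolated and 29.5% of the other DKO regions, a difference of -7.19 points (-11.9 to -1.63). Near regions of this width did not differ detectably from the other DKO regions in either mark taken alone. The differences were 1.95 points (-0.531 to 4.48) for the DKO mark and 0.966 points (-1.37 to 3.38) for the SmoM2 mark. The share with H3K27ac of neither genotype within 10 kb was lower at near regions of this width, with a difference of -3.02 points (-5.58 to -0.493). At all widths that difference had the opposite sign, at 5.82 points (3.50 to 8.12).

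**Figure D4:**
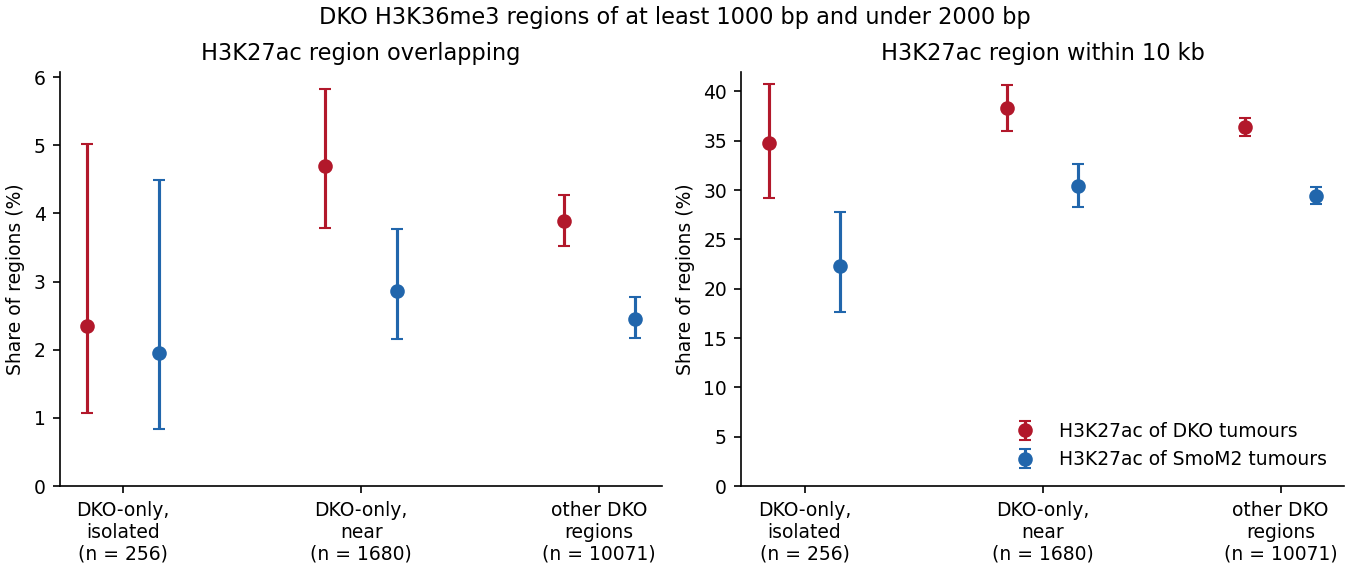
Share of DKO H3K36me3 regions of 1000 bp to under 2000 bp (percent) with an H3K27ac region overlapping (left) or within 10 kb (right), for 256 isolated and 1680 near DKO-only regions and 10071 other DKO regions. Points are shares and bars Wilson 95% intervals; DKO H3K27ac is in red and SmoM2 H3K27ac in blue, and the SmoM2 share at isolated regions (22.3%) lies below that at the other DKO regions (29.5%).

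Acetylation called near isolated regions in a single genotype was mostly that of DKO tumours. DKO but not SmoM2 H3K27ac was within 10 kb of 43 isolated regions (14.98%, 11.3–19.6%), 214 near regions (11.5%, 10.1–13.01%) and 3174 other DKO regions (10.8%, 10.5–11.2%), against 10.9% of all DKO regions of that width. The difference of isolated minus other regions was 4.14 points (0.452 to 8.74), and 4.90 points (1.07 to 9.77) among regions under 2000 bp wide. Its interval included 0 when only H3K27ac regions with a −log10 q of at least 3 were used (2.01 points, -1.26 to 6.27). It also included 0 when only H3K36me3 regions with a −log10 q of at least 2 (5.10 points, -0.952 to 13.8) or a width of at least 2000 bp (7.83 points, -2.35 to 24.8) were used. Near minus other regions gave 0.639 points (-0.777 to 2.21) at all widths and 2.05 points (0.494 to 3.77) under 2000 bp, and isolated minus near gave 3.50 points (-0.475 to 8.29) and 2.85 points (-1.27 to 7.89). The excess was thus not shown to be particular to isolated regions. SmoM2 but not DKO H3K27ac was within 10 kb of 5 isolated regions (1.74%, 0.746–4.01%), 65 near regions (3.49%, 2.75–4.42%) and 773 other DKO regions (2.64%, 2.46–2.83%), against 2.68% of all. For SmoM2 but not DKO H3K27ac, the difference of near minus other regions was 0.847 points (0.0810 to 1.80). Among regions under 2000 bp wide that difference was 1.07 points (0.203 to 2.12). For the 70 isolated regions over 50 kb from a SmoM2 region, the difference to the other DKO regions in the share with DKO but not SmoM2 H3K27ac was -0.848 points (-5.93 to 8.39), an interval that holds both 0 and the 4.14 points of all isolated regions.

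Put another way, where a single genotype had H3K27ac within 10 kb, it was DKO tumours at 43 of 48 isolated regions (89.6%, 77.8–95.5%). It was DKO tumours at 214 of 279 near regions (76.7%, 71.4–81.3%) and at 3174 of 3947 other DKO regions (80.4%, 79.1–81.6%). The DKO H3K27ac list was the longer one, with 28987 regions on chromosomes 1 to 19 against 21211 in SmoM2 tumours, and the part of list length in these shares was not tested. Isolated regions exceeded near ones by 12.9 points (0.270 to 20.8), and the interval of their difference to the other DKO regions included 0 (9.17 points, -2.64 to 15.2). At the 620 SmoM2-only regions the share was 55 of 83 (66.3%, 55.6–75.5%), and the 2150 DKO-only regions, with 257 of 327 (78.6%, 73.8–82.7%), exceeded them by 12.3 points (1.92 to 23.8). The DKO-only regions did not stand apart from the other DKO regions in this share, with a difference of -1.82 points (-6.74 to 2.47). It was 3245 of 4109 (79.0%, 77.7–80.2%) at the other SmoM2 regions, so the low value was that of the SmoM2-only regions.

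Neighbouring isolated regions share their surroundings, so they were also counted once per run. Of the 233 runs and single regions joined at most 50 kb apart, 93 had DKO H3K27ac within 10 kb and 61 had SmoM2 H3K27ac. In 37 it was DKO alone and in 5 SmoM2 alone, or 88.1% DKO (75.0–94.8%). That interval holds the 80.4% of the other DKO regions, which were not joined into runs. The count per run was chosen after seeing the data. In acetylated bases, the windows of 10 kb around isolated regions held 198 kb of DKO and 109 kb of SmoM2 H3K27ac, a ratio of 1.82. The ratio was 1.43 around near regions, 1.36 around the other DKO regions and 1.33 over chromosomes 1 to 19. Median folds of these H3K27ac regions were 3.88 in DKO and 3.74 in SmoM2 tumours around isolated regions, each in its own list.

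The 8 isolated regions that overlapped DKO H3K27ac were not all alike. The highest by −log10 q, on chromosome 9 at 57865795–57869914, belongs to the stretch described above, and the nearest SmoM2 H3K27ac region was 3.18 kb away. Regions on chromosome 11 at 109439963–109441949 and chromosome 6 at 87124728–87127070 overlapped acetylation in DKO tumours while the nearest SmoM2 H3K27ac region was 67.5 and 58.7 kb away. Regions on chromosome 5 (125654527–125655649), chromosome 16 (91227019–91228030) and chromosome 6 (64680083–64681388) overlapped acetylation in both genotypes. The remaining 2 had SmoM2 H3K27ac within 0.627 and 0.277 kb.

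Gli2 peaks were rare at DKO-only regions, and within 10 kb no difference to the other DKO regions was detectable at widths of at least 1000 bp. A DKO Gli2 peak lay within 10 kb of 56 DKO-only regions (2.60%, 2.01–3.37%), 6 of them isolated, against 678 other DKO regions (2.32%, 2.15–2.50%) and 2.34% of all DKO regions of that width. The difference was 0.287 points (-0.332 to 1.07), an interval that includes 0. It was 1.69 points (0.420 to 3.10) when the distance was widened to 50 kb, and 2.14 points (0.0124 to 5.86) within 10 kb at widths of at least 2000 bp, and both intervals exclude 0. A SmoM2 Gli2 peak lay within 10 kb of 5 DKO-only regions (0.233%), against 101 other DKO regions (0.345%) and 0.337% of all. Seen from the Gli2 list, 53 of 1397 DKO peaks on these chromosomes (3.79%, 2.91–4.93%) had a DKO-only region within 10 kb.

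A DKO Gli2 peak overlapped 2 of 2150 DKO-only regions (0.0930%), both near, against 26 of 29260 other DKO regions (0.0889%) and 0.0891% of all. The difference was 0.00416 points (-0.0750 to 0.251). Under 2000 bp wide it was 2 of 1936 DKO-only regions, against 0 of 10071 other DKO regions, which allows a share of up to 0.0298%, and the difference was 0.103 points (0.0192 to 0.376). The first, on chromosome 7 at 86665458–86666796, had a SmoM2 H3K36me3 region 0.631 kb away, a Gli2 peak of fold 8.32 inside and a SmoM2 Gli2 peak 2.11 kb away. The second, on chromosome 11 at 59998111–59999189, had a SmoM2 H3K36me3 region 0.396 kb away, a Gli2 peak of fold 7.18 inside and the nearest SmoM2 Gli2 peak 17.7 kb away. H3K27ac was called at both in both genotypes. Of the 287 isolated regions, 0 overlapped a DKO Gli2 peak, which allows a share of up to 1.05% and so does not set them apart from the 0.0889% of the other DKO regions.

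DKO-only regions were found on every one of the 19 chromosomes. Their share of the DKO regions of at least 1000 bp ran from 5.48% (4.67–6.43%) on chromosome 2 to 8.97% (7.63–10.5%) on chromosome 6, with 8.85% on chromosome 3 and 8.70% on chromosome 14. Isolated regions were more uneven, from 9 of 2180 (0.413%) on chromosome 4 to 33 of 1517 (2.18%, 1.55–3.04%) on chromosome 6. On the other 18 chromosomes together it was 254 of 29893 (0.850%), which gives chromosome 6 an excess of 1.33 points (0.694 to 2.20). Chromosome 6 was picked out for this value, so the interval describes it and is no test. Its 33 isolated regions were spread over 25 stretches of 1 Mb, so no single place held them.

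**Figure D5:**
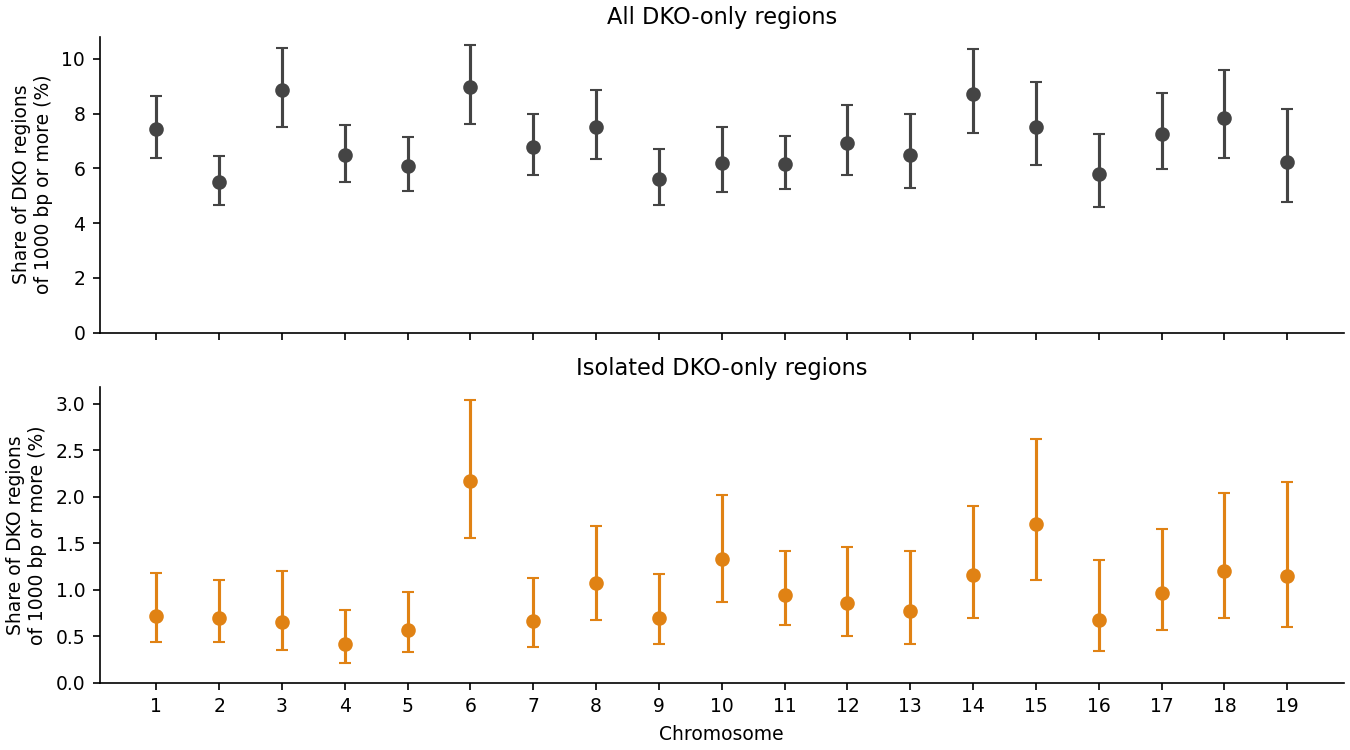
Share of DKO H3K36me3 regions of at least 1000 bp (percent) that were DKO-only (top) and isolated (bottom) on each of the 19 chromosomes, with Wilson 95% intervals as bars. DKO-only shares lie between 5.48% and 8.97%, and the isolated share on chromosome 6 (2.18%) is the highest.

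By stretches of 1 Mb, 1030 held at least 1 DKO-only region, 491 held 1 and 68 held 5 or more. The most, 13 of 23 DKO regions of that width, were on chromosome 1 between 71000001 and 72000000, and all were near. Chromosome 10 between 91000001 and 92000000 held 10, and these were all of its DKO regions of at least 1000 bp. Chromosome 17 between 68000001 and 69000000 held 10 of 11 and chromosome 15 between 92000001 and 93000000 held 10 of 15. On chromosome 4 between 97000001 and 98000000, the 11 DKO-only regions were among 64.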

How the data were processed

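Per the labels' protocols, crosslinked and sonicated tumour chromatin was immunoprecipitated with Gli2, H3K27ac or H3K36me3 antibody. The same text names an Olig2 antibody that no sample label lists. Per the labels, both libraries of a group share 1 list, called merged. The sources used here do not say whether reads were pooled before calling or whether input was the control. Build mm9 and the tools MACS2, bedtools, BWA and Trimmomatic 0.36 are named per the submitters' processing notes, without roles, calling settings or further versions. The authors deposited broad regions for histone marks and narrow peaks for Gli2, without headers. Their fold enrichment is the authors' ratio of signal to background. The authors gave q on the −log10 scale, and the deposited score follows it. The other deposited columns used hold positions. Fold and −log10 q only describe or filter regions within a list.

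DKO-only regions were found by position with Python 3.11.15, numpy 2.4.6 and pandas 2.3.3. A gap is the number of bases between 2 regions, overlap means at least 1 shared base, and near means a gap of at most 10 kb. Coverage profiles used 1 kb bins to 50 kb from each centre. Wilson and Newcombe 95% intervals came from counts of regions. Code for gaps, shared bases and overlap was tested on simulated regions, and that for Newcombe intervals on a published example. Named regions are, by rule, the 10 isolated and 10 near ones with the highest −log10 q, the 10 widest, the 10 stretches with the most DKO-only bases, those overlapping a DKO Gli2 peak, the 5 isolated ones farthest from a SmoM2 region and those at the boundaries. The runs of at least 4 isolated regions, the isolated regions overlapping DKO H3K27ac and the fullest stretches of 1 Mb were added after their values were seen. A part of each set is given. The members and sets were chosen with earlier results of these data known. Alternatives changed widths, thresholds, overlap, distances and chromosomes. No annotation or genome of mm9 was used, so genes and sequences are not analysed here.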

Additional observations from a re-analysis of the deposited data

Results flagged for a closer look

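The rule left out the sex chromosomes, and chromosome X held 100 further H3K36me3 regions of at least 1000 bp called in DKO tumours that shared no base with a SmoM2 region. They were 14.7% (12.3–17.6%) of 678 DKO regions there, above every one of chromosomes 1 to 19, and 14 of them were isolated. Together they covered 149.935 kb, with a median width of 1389.5 bp and a median fold enrichment of 2.97. SmoM2-only regions on chromosome X numbered 5 of 414 (1.21%, 0.517–2.80%). The whole X list was also longer in DKO tumours, at 1869 kb against 901 kb in SmoM2 tumours. The sex of the animals was not known here, and its part in these values was not tested.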

How the results depend on the processing

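Of 138 planned values, 88 stayed (shares and differences within the reported interval, counts within 1.5 times), 49 moved and 1 turned sign. Of 19 chosen after seeing the data, 15 stayed, 2 moved and 2 turned sign. Joining the opposite list at 1 kb changed no value, because a member of at least 1000 bp can hardly fit a gap of that size. A fold enrichment of at least 2.5 kept 2143 of the 2150 members. The planned values that stayed include all those of these settings, which could hardly move them. No paired analysis was possible because both libraries of a group share a list, and leaving out each library was not run for the same reason. Genes could not be counted without an mm9 annotation. The unknown read depth limits what an uncalled position shows. The isolated difference in DKO but not SmoM2 H3K27ac stayed by that measure, yet its interval included 0 with H3K27ac of −log10 q of at least 3 (2.01, -1.26 to 6.27), with −log10 q of at least 2 (5.10, -0.952 to 13.8) and with 2000 bp (7.83, -2.35 to 24.8). Other differences stayed by that measure with intervals that included 0. With 2000 bp, the isolated difference in DKO H3K27ac within 10 kb was -7.91 (-23.4 to 9.40). The difference in SmoM2 H3K27ac overlap was -2.00 (-3.87 to 1.47) with 2000 bp and -1.65 (-4.81 to 6.69) with −log10 q of at least 3. Differences are in points, members minus other DKO regions.

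With a minimum width of 500 bp there were 8072 DKO-only regions (17.6%), 1064 isolated, in 6143 stretches, against 4445 SmoM2-only regions, a ratio of 1.82. With 2000 bp there were 214 (1.10%), 31 isolated, in 205 stretches, against 23, a ratio of 9.30. The difference in DKO H3K27ac overlap was then -1.16 (-4.01 to 3.18), and that in DKO Gli2 within 10 kb was 2.14 (0.0124 to 5.86). With −log10 q of at least 2 there were 709 (2.83%), 94 isolated, in 656 stretches, against 334, a ratio of 2.12. The isolated difference in SmoM2 H3K27ac within 10 kb was -19.3 (-26.0 to -10.2). With −log10 q of at least 3 there were 63 (0.505%), 10 isolated (15.9%), in 61 stretches, against 20. The difference in DKO H3K27ac overlap was -5.04 (-8.21 to 3.31). The isolated differences within 10 kb were then -23.9 (-43.1 to 6.43) for DKO H3K27ac, -35.2 (-43.5 to -4.78) for SmoM2 H3K27ac and 9.04 (-5.31 to 40.02) for DKO but not SmoM2 H3K27ac.

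When up to 10% of a region's bases could be shared, the DKO-only share was 9.02%, with 10.1% isolated. With regions of the opposite list joined at 10 kb, there were 1187 DKO-only regions (3.78%, 24.2% isolated) in 1054 stretches, against 313 SmoM2-only regions, and the DKO H3K27ac overlap difference was -1.24 (-2.46 to 0.244). Isolated regions numbered 472 (22.0%) at over 5 kb and 70 (3.26%) at over 50 kb. At over 50 kb the isolated differences were -16.6 for DKO H3K27ac and -0.848 for DKO but not SmoM2 H3K27ac, which turned sign. The cause was not tested.

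With H3K27ac within 1 kb in place of overlap, the differences were -3.74 in DKO and -3.25 in SmoM2 tumours. With H3K27ac of −log10 q of at least 3 they were -0.692 (-1.25 to 0.0272) in DKO and -0.341 (-0.785 to 0.266) in SmoM2 tumours. With a Gli2 peak within 50 kb the difference was 1.69. Among regions under 2000 bp wide the overlap differences turned to 0.508 in DKO and 0.285 in SmoM2 tumours, and the isolated differences within 10 kb were -1.62 in DKO and -7.19 in SmoM2 tumours.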
